A study of Mus musculus with 6 samples.

Results

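Red blood cell transcripts were followed in mouse liver, as 6 genes chosen by symbol: the alpha globins Hba-a1 and Hba-a2, the beta globins Hbb-bs and Hbb-bt, Alas2 and Slc4a1. All 6 were found among the 22274 genes of the deposited table, and all 6 passed the filter on low counts, as did 13201 genes in all. The C57 mice had received either Ad-Dyrk1b, which makes cells overexpress mouse Dyrk1b (3 libraries), or the control virus Ad-EGFP (3 libraries). Every animal had thus been given an adenovirus, and there was no group without one. The age, sex, viral dose and time after infection are not stated in the sources used here. Whether each library is from its own mouse is not said in the labels, and the p-values therefore measure the spread between these libraries, which may be partly technical. The libraries held 17326516 to 20024888 counts. Dyrk1b, the gene carried by the virus, averaged 86.5 ± 21.1 FPKM (fragments per kilobase of transcript per 1e6 counts) in Ad-Dyrk1b livers and 4.31 ± 0.595 FPKM in Ad-EGFP livers (n = 3 each, SD).

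Haemoglobin is built from alpha and beta chains, each of which holds a haem group, and in adult mice it is made in the red cell precursors of bone marrow and spleen. Alas2 encodes the erythroid form of 5-aminolevulinate synthase, which catalyses the first step of haem synthesis in red cell precursors. Its relative Alas1 serves the same step in other cells, hepatocytes among them. Slc4a1 encodes band 3, the anion exchanger of the red cell membrane. Mature red cells have no nucleus, while reticulocytes, the youngest red cells in blood, still carry globin mRNA. The adult liver is not normally a site of red cell formation. In bulk tissue, more red cells or precursors in a sample and more globin RNA per cell cannot be told apart.

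The genes lie in 4 places of the mm10 genome. Hba-a1 (ENSMUSG00000069919) occupies chr11:32283511-32284465 and Hba-a2 (ENSMUSG00000069917) chr11:32296489-32297298, both on the plus strand. Hbb-bt (ENSMUSG00000073940, chr7:103812524-103813996) and Hbb-bs (ENSMUSG00000052305, chr7:103826534-103828096) lie on the minus strand. Alas2 (ENSMUSG00000025270) occupies chrX:150547375-150570638 on the plus strand and Slc4a1 (ENSMUSG00000006574) chr11:102348824-102366203 on the minus strand. Each globin transcript has 3 exons, against 11 in Alas2 and 20 in Slc4a1 (GENCODE M21).

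The globin genes come as near-identical copies, which limits what the level of either copy can show. The coding sequences of Hba-a1 and Hba-a2 are 426 bases each and differ at 1 base (C381T, Hba-a1 to Hba-a2, counted from the first coding base). Those of Hbb-bs and Hbb-bt are 441 bases each and also differ at 1 base (C417T, Hbb-bs to Hbb-bt). Both differences are at the third base of a codon. The 60 coding bases around each are shown to let the copies be compared, with the differing base in capitals.
Hba-a1: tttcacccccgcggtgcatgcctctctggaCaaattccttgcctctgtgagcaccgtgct
Hba-a2: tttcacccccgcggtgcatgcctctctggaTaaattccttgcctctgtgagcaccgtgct
Hbb-bs: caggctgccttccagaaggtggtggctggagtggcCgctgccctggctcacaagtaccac
Hbb-bt: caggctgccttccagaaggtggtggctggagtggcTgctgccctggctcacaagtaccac

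Most of what separates the copies therefore lies outside the coding sequence. Of the 100-base windows of the Hba-a1 transcript, 56.5% were also found in Hba-a2, and 74.5% of those of Hba-a2 in Hba-a1. Of the windows of Hbb-bs, 62.6% were found in Hbb-bt, and 54.8% of those of Hbb-bt in Hbb-bs. How reads that match both copies were counted is not stated in the sources used here, so single copies are uncertain and sums over each pair are also given.

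Upstream sequences were in RefSeq's GRCm38.p6 promoter table for 5 of the 6 genes, all but Slc4a1. The 250 bases before the RefSeq start of 1 alpha globin, 1 beta globin and Alas2 are shown. Whether these sequences bear on the levels in any library was not tested. Capitals mark 4 short motifs searched on both strands: GATAA, the core of the site bound by the erythroid factor Gata1, CACCC, which Klf family factors bind, the CCAAT box, and the letters ATATAA of a TATA-type box.
Hba-a2 (chr11:32296242-32296491, plus strand): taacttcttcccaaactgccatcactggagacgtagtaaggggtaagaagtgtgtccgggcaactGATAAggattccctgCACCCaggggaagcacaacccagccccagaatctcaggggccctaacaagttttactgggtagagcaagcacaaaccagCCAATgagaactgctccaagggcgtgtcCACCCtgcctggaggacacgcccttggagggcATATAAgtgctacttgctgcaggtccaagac
Hbb-bs (chr7:103827929-103828178, minus strand): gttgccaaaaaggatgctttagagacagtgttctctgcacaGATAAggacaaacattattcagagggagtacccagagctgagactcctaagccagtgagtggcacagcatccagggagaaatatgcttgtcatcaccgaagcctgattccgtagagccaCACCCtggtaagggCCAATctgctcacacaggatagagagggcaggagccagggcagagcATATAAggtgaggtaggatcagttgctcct
Alas2 (chrX:150547167-150547416, plus strand): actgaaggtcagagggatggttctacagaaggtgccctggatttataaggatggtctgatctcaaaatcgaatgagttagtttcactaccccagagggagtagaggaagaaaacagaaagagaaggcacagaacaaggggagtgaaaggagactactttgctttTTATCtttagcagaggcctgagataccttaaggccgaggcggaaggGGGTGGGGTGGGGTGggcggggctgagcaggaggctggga

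All 4 motifs occurred in each of the 4 globin windows. The windows of Hba-a1 and Hba-a2 hold the same sequence shifted by 3 bases, so they are not separate observations. The TATA-type box began 28 to 31 bases before the start, at 31 in Hba-a2 and 30 in Hbb-bs. In Hba-a2 GATAA began 185 bases and CCAAT 91 bases before the start, and in Hbb-bs they began 209 and 76 bases before it. The Alas2 window held GATAA and CACCC only, both as reverse complements (TTATC and GGGTG). No match overlapped another. Of 32851 RefSeq promoter windows of the same length, 22.6% held GATAA, 52.0% CACCC, 33.8% CCAAT and 9.10% ATATAA. GENCODE places the start upstream of the RefSeq start, by 3 bases in Hba-a2, 168 in Hbb-bs and 42 in Alas2. These are matches of letters, and no binding was measured.

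Every one of the 6 transcripts was highest in Ad-Dyrk1b replicate 3, and none passed the test between groups. Over all 13201 tested genes, Ad-Dyrk1b replicate 3 was the highest of the 6 libraries in 18.7%, counted here and for the lists further on by CPM (counts scaled to 1e6 per library after TMM, edgeR's trimmed mean factors). Within each library the order of levels, in FPKM, was Hbb-bs, Hba-a2, Hba-a1, Hbb-bt, Alas2 and Slc4a1. Across the Ad-EGFP libraries the ranges of Hbb-bs and Hba-a2 overlapped, as did those of Hba-a2 and Hba-a1, while Hba-a1, Hbb-bt, Alas2 and Slc4a1 had separate ranges.

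**Figure D1:**
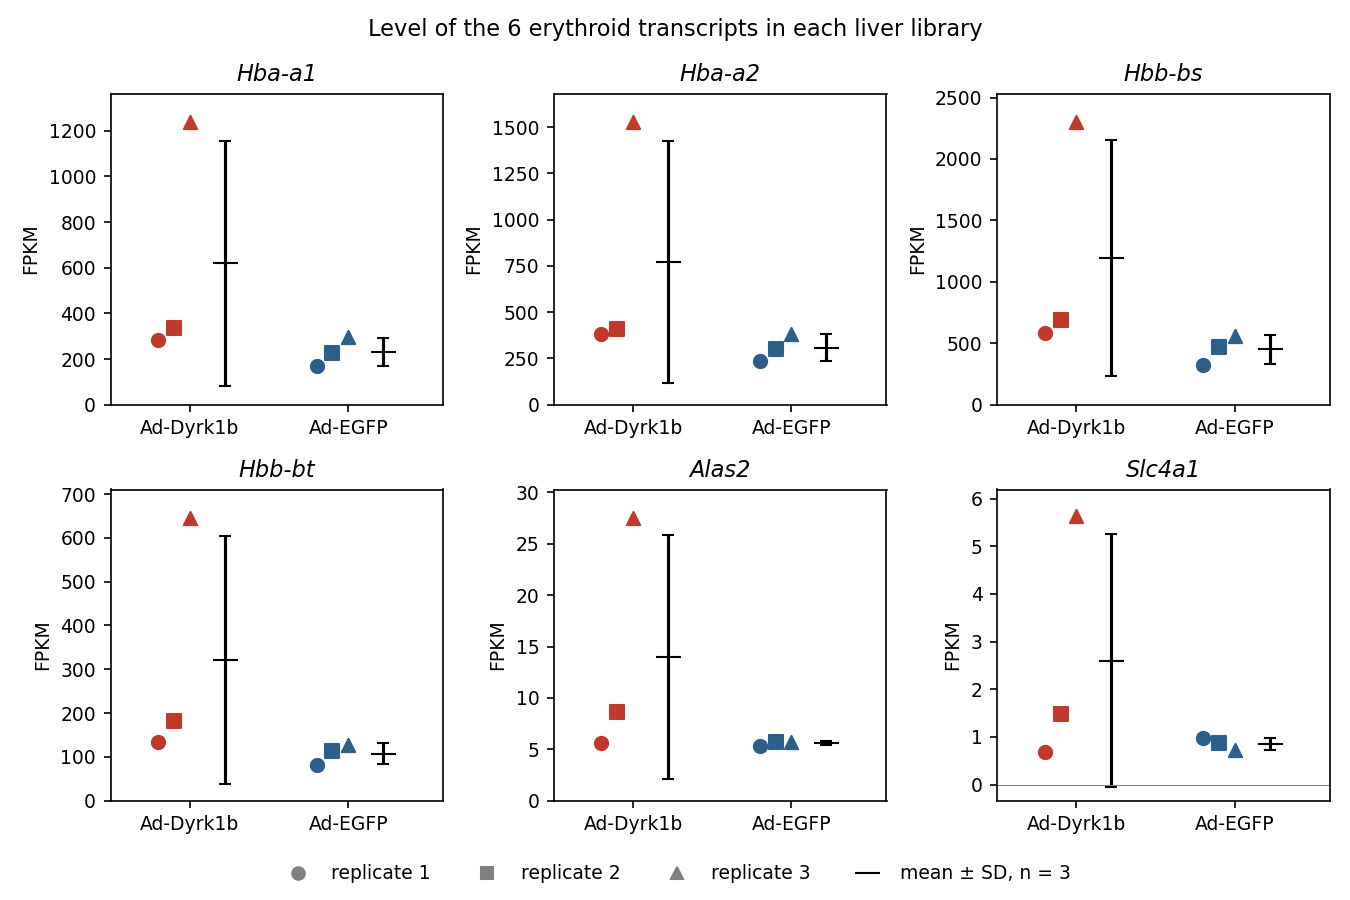
FPKM of each of the 6 transcripts in each liver library, with Ad-Dyrk1b on the left and Ad-EGFP on the right of each panel; marker shapes are the replicates and the bar is the mean ± SD of 3 libraries. Ad-Dyrk1b replicate 3 is the highest point in all 6 panels, for example 2303 FPKM of Hbb-bs against 326 to 561 FPKM in the Ad-EGFP libraries.

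Of the alpha globins, Hba-a1 measured 283, 335 and 1239 FPKM in Ad-Dyrk1b replicates 1, 2 and 3, against 170.3, 226 and 295 FPKM in Ad-EGFP replicates 1, 2 and 3. The groups overlapped, since Ad-Dyrk1b replicate 1 lay below Ad-EGFP replicate 3. Hba-a2 measured 383, 407 and 1529 FPKM in the Ad-Dyrk1b libraries, against 238, 303 and 384 FPKM in the Ad-EGFP libraries, and overlapped by the same pair of libraries. Mean levels were 619 ± 538 FPKM in Ad-Dyrk1b livers and 230.3 ± 62.5 FPKM in Ad-EGFP livers for Hba-a1 (SD, n = 3 each). For Hba-a2 they were 773 ± 655 FPKM in Ad-Dyrk1b livers and 308 ± 73.1 FPKM in Ad-EGFP livers. The log2 fold change, Ad-Dyrk1b over Ad-EGFP, was 1.52 ± 0.73 (SE) for Hba-a1 and 1.42 ± 0.69 for Hba-a2, with edgeR adjusted p = 0.263 and 0.270.

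Of the beta globins, Hbb-bs measured 586, 690.4 and 2303 FPKM in Ad-Dyrk1b replicates 1, 2 and 3, against 326, 471 and 561 FPKM in Ad-EGFP replicates 1, 2 and 3. Hbb-bt measured 135, 181 and 646 FPKM in the Ad-Dyrk1b libraries, against 81.0, 114 and 127 FPKM in the Ad-EGFP libraries. For both genes every Ad-Dyrk1b library lay above every Ad-EGFP library, replicate 1 narrowly so. Mean levels were 1193 ± 962 FPKM in Ad-Dyrk1b livers and 453 ± 118 FPKM in Ad-EGFP livers for Hbb-bs (SD, n = 3 each), and 320.4 ± 283 FPKM in Ad-Dyrk1b livers and 107 ± 23.6 FPKM in Ad-EGFP livers for Hbb-bt. The log2 fold change was 1.49 ± 0.67 for Hbb-bs and 1.68 ± 0.74 for Hbb-bt, with edgeR adjusted p = 0.235 and 0.234.

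Alas2, the erythroid enzyme, lay far below the globins, at 5.63, 8.67 and 27.5 FPKM in Ad-Dyrk1b replicates 1, 2 and 3, against 5.34, 5.74 and 5.69 FPKM in Ad-EGFP replicates 1, 2 and 3. The Ad-EGFP libraries were nearly equal, and Ad-Dyrk1b replicate 1 lay among them. Between groups the log2 fold change of Alas2 was 1.44 ± 0.70, with edgeR adjusted p = 0.265. Alas2 overlaps Apex2, a gene on the opposite strand that encodes a DNA repair nuclease, and no strand setting is stated for the counting. Apex2 averaged 5.05 ± 0.472 FPKM in Ad-Dyrk1b livers and 6.37 ± 0.189 FPKM in Ad-EGFP livers, with a log2 fold change of -0.24 ± 0.14 by edgeR (adjusted p = 0.290), and it was lowest in Ad-Dyrk1b replicate 3, where Alas2 was highest.

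Slc4a1 was the scarcest of the 6, at 0.69, 1.48 and 5.63 FPKM in Ad-Dyrk1b replicates 1, 2 and 3, against 0.97, 0.87 and 0.72 FPKM in Ad-EGFP replicates 1, 2 and 3. These levels rested on 60, 135 and 458 counts in the Ad-Dyrk1b libraries, against 79, 69 and 57 counts in the Ad-EGFP libraries. Ad-Dyrk1b replicate 1 was the lowest of all 6 libraries and replicate 3 the highest, so the Ad-Dyrk1b group spanned the whole range. Its log2 fold change was 1.69 ± 0.88, the largest of the 6, with edgeR adjusted p = 0.291.

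Against Ad-EGFP, 0 of the 6 transcripts were called by edgeR at an adjusted p under 0.05, and 0 had an unadjusted p under 0.05. Over all tested genes 12.2% were called and 28.5% had such an unadjusted p. DESeq2, limma-voom and limma-trend on FPKM also called 0 of the 6. In the authors' deposited table the unadjusted p ran from 0.0186 for Hbb-bt to 0.0526 for Hba-a2, and the adjusted p from 0.128 to 0.248 for the same genes. Unlike with edgeR, the authors' unadjusted p was thus under 0.05 for all but Hba-a2. The share of all genes at that level was not counted for the authors' values. The median log2 fold change of the 6 was 1.51, beside -0.00498 over all tested genes. By CPM, every Ad-Dyrk1b library lay above every Ad-EGFP library in 4 of the 6, namely Hba-a2, Hbb-bs, Hbb-bt and Alas2, as it did in 16.8% of all tested genes. By FPKM this held for 2 of the 6, Hbb-bs and Hbb-bt, and for 10.9% of all tested genes.

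Much of the size of these differences came from Ad-Dyrk1b replicate 3. It exceeded the mean of Ad-Dyrk1b replicates 1 and 2 by 3.61-fold in Hbb-bs, 3.85-fold in Alas2, 3.87-fold in Hba-a2, 4.02-fold in Hba-a1, 4.09-fold in Hbb-bt and 5.19-fold in Slc4a1, in FPKM. Without it, the log2 fold change was 0.51 ± 0.20 for Hba-a1, 0.44 ± 0.17 for Hba-a2, 0.58 ± 0.20 for Hbb-bs and 0.65 ± 0.20 for Hbb-bt. It was 0.48 ± 0.21 for Alas2 and 0.45 ± 0.34 for Slc4a1. The median of the 6 was then 0.50, beside -0.01 over all genes tested without that library.

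With the smaller spread, 5 of the 6, all but Slc4a1, had an unadjusted p under 0.05 by edgeR, and all 5 were higher in Ad-Dyrk1b. Of the 13335 genes tested without that library, 13.4% were higher at that level. None of the 6 was called, with edgeR adjusted p from 0.0772 for Hbb-bt to 0.451 for Slc4a1, where 8.97% of the genes tested were called. Leaving out any of the other 5 libraries in turn kept every log2 fold change above 1.

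**Figure D2:**
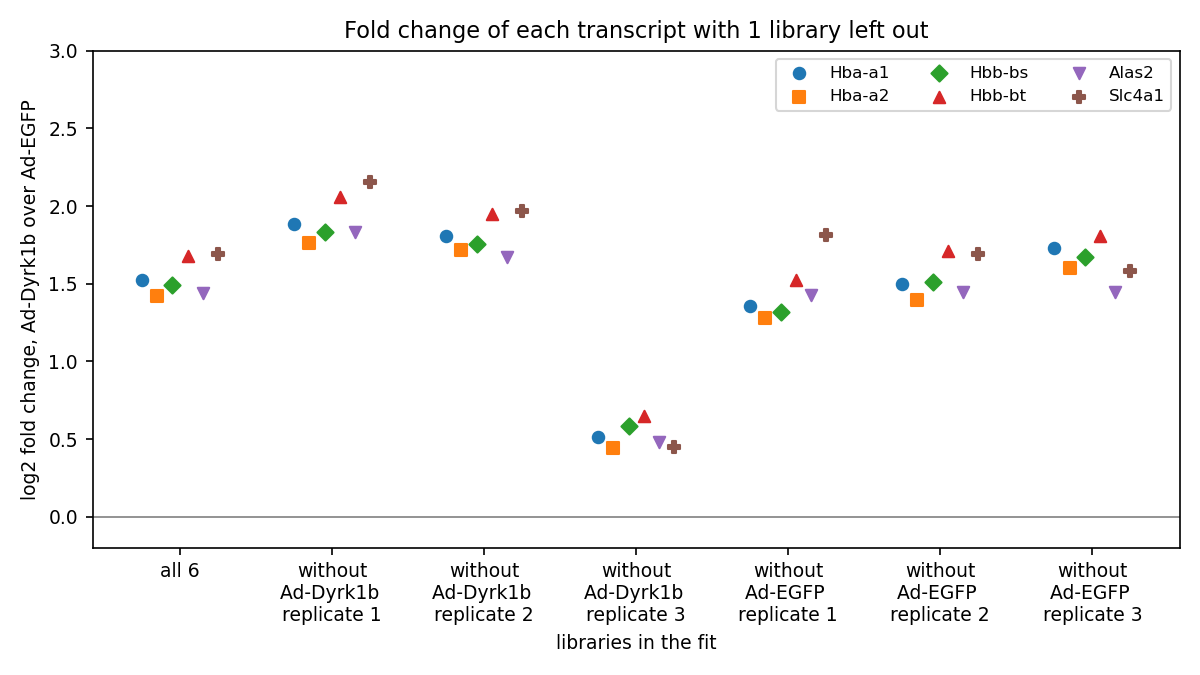
Log2 fold change (edgeR, Ad-Dyrk1b over Ad-EGFP) of each transcript in the fit of all 6 libraries and with each library left out, as named under the axis; each symbol is 1 gene. The 6 values lie between 0.44 and 0.65 without Ad-Dyrk1b replicate 3 and above 1 in every other fit shown.

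Summed over the 4 globin genes, the transcripts took 0.0872%, 0.102% and 0.361% of all counts in the Ad-Dyrk1b libraries, against 0.0513%, 0.0701% and 0.0860% of those in the Ad-EGFP libraries, in order of replicate. Ad-Dyrk1b replicate 1 thus lay just above the highest Ad-EGFP library, and only replicate 3 far above it. The alpha pair summed to 402, 492 and 1780 CPM in the Ad-Dyrk1b libraries, against 249.7, 312 and 403 CPM in the Ad-EGFP libraries. The beta pair summed to 454, 601 and 1974 CPM in the Ad-Dyrk1b libraries, against 261, 359.7 and 425 CPM in the Ad-EGFP libraries.

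The alpha sums overlapped between groups and the beta sums did not. The difference of mean log2 sums was 1.16 for the alpha pair (exact two-sided permutation p = 0.2), 1.25 for the beta pair (exact permutation p = 0.1) and 1.21 for all 4 genes (exact permutation p = 0.1). With 3 libraries against 3, no p below 0.1 can be had. Without Ad-Dyrk1b replicate 3 the difference for all 4 genes was 0.56.

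The 4 globin transcripts kept similar proportions while their levels varied. The count ratio of the alpha pair over the beta pair was 0.885, 0.819 and 0.902 in the Ad-Dyrk1b libraries, against 0.958, 0.866 and 0.949 in the Ad-EGFP libraries, in order of replicate. Ad-Dyrk1b replicate 3 lay within the range of the Ad-EGFP libraries, and the groups overlapped. Hba-a1 over Hba-a2 ranged from 0.932 to 1.04 in Ad-Dyrk1b livers and from 0.902 to 0.969 in Ad-EGFP livers. In FPKM, which divides by transcript length (699 bases in Hba-a1 and 554 in Hba-a2), Hba-a1 was below Hba-a2 in every library, at 0.715 to 0.823 of its level. By counts Hba-a1 was above Hba-a2 in Ad-Dyrk1b replicates 2 and 3 (1.04 and 1.02). The order of the 2 copies in those libraries thus depends on whether counts are divided by the annotated length. The effect of how shared reads were counted was not tested.

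Hbb-bs over Hbb-bt was 3.89, 3.41 and 3.18 in the Ad-Dyrk1b libraries, against 3.6, 3.70 and 3.95 in the Ad-EGFP libraries. This ratio was lowest in Ad-Dyrk1b replicate 3. The 4 globins over Alas2 gave 77.1, 58.2 and 65.4 in the Ad-Dyrk1b libraries, against 48.7, 62.3 and 76.8 in the Ad-EGFP libraries. The globins over Slc4a1 gave 278, 151 and 141 in the Ad-Dyrk1b libraries, against 116, 178 and 262 in the Ad-EGFP libraries. The widest spread between libraries was in this last ratio, and it lay within both groups.

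Between groups, the log2 difference was -0.09 for alpha over beta, 0.09 for Hba-a1 over Hba-a2 and -0.11 for Hbb-bs over Hbb-bt (exact two-sided permutation p = 0.3 each, 0.5 after Benjamini-Hochberg adjustment over the 5 ratios). It was 0.11 for the globins over Alas2 (exact permutation p = 0.6, adjusted 0.75) and 0.04 for the globins over Slc4a1 (exact permutation p = 0.9, adjusted 0.9). The last 2 differences turn negative without Ad-EGFP replicate 1, to -0.058 and -0.25, and the last also without Ad-Dyrk1b replicate 1, to -0.27.

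**Figure D3:**
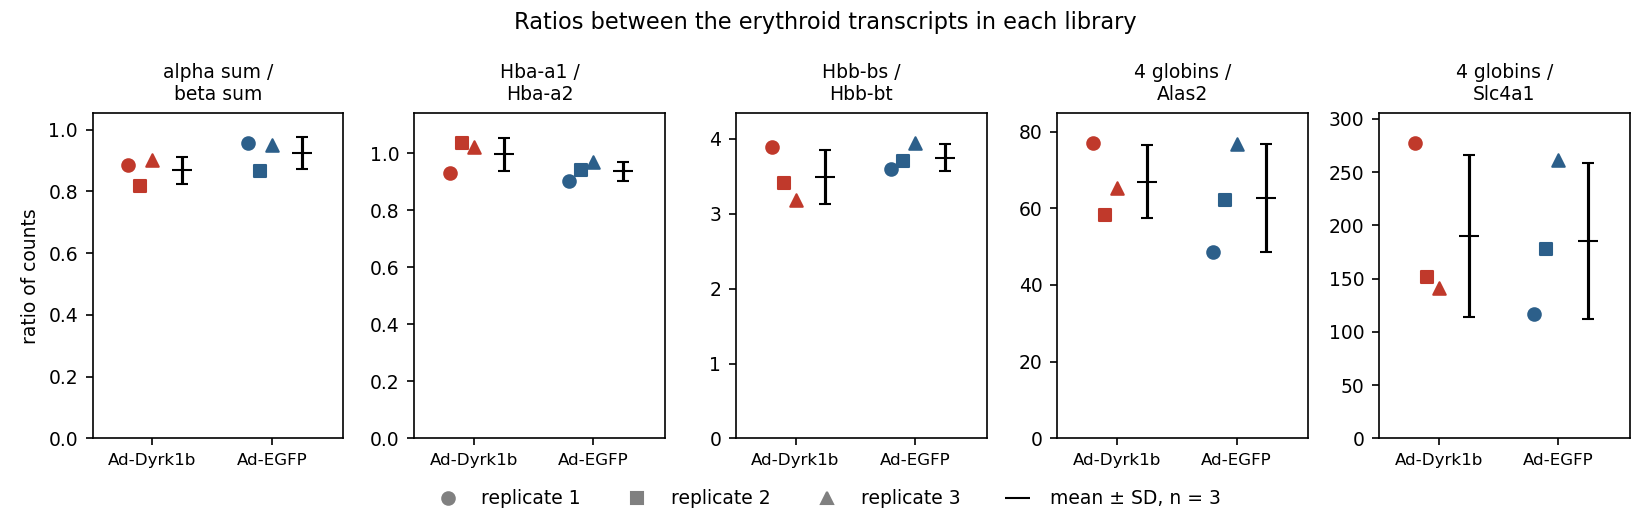
Ratio of counts between erythroid transcripts in each library, with Ad-Dyrk1b left of Ad-EGFP in each panel, marker shapes for the replicates and bars for the mean ± SD of 3 libraries. The 2 groups overlap in all 5 panels, and alpha over beta stays between 0.819 and 0.958 in all 6 libraries.

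Other globins were scarce or not counted. Of 9 further globin genes, 5 had no count in any library: the embryonic Hba-x, Hbb-y and Hbb-bh1, Hbb-bh2, and the muscle globin Mb. A count of 0 allows up to 3 counts, or 0.150 to 0.173 CPM, per library, and such limits cover counting error only. Cygb, the cytoglobin of stellate and other connective tissue cells, was the only one tested, at 5.68, 3.58 and 6.72 FPKM in Ad-Dyrk1b replicates 1, 2 and 3, against 4.64, 7.11 and 6.51 FPKM in Ad-EGFP replicates 1, 2 and 3. Its log2 fold change was -0.11 ± 0.22 (edgeR adjusted p = 0.776). Ngb, the neuronal globin, reached at most 0.46 FPKM, and Hbq1b at most 0.31 FPKM.

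Genes of the red cell membrane and its skeleton were mostly higher in Ad-Dyrk1b replicate 3, and none was called. Of 16 genes on this list 13 were tested, 0 were called by edgeR, 5 had an unadjusted p under 0.05, and limma-voom called 0. DESeq2, edgeR with RLE in place of TMM scaling, and edgeR with the replicate number as a block each called 1, Epb41, with an adjusted p of 0.0170, 0.0479 and 0.0484. Without Ad-Dyrk1b replicate 1 edgeR called 3. Over all tested genes, as a measure for this and the later lists, 12.2% were called by edgeR and 28.5% had an unadjusted p under 0.05. In the whole table DESeq2 called 1179 genes higher and 715 lower, limma-voom 919 and 581, and RLE scaling 1000 and 612. The replicate block called 1109 and 774, and the fit without Ad-Dyrk1b replicate 1 called 707 and 381. Ad-Dyrk1b replicate 3 was the highest library in 9 of the 13, beside 18.7% of all tested genes. Of these genes, Ermap, Epb42, Add2, Ank1, Sptb and Dmtn stayed under 1 FPKM in every library, and Rhd reached 1.29 FPKM. The median log2 fold change was 1.03 with all libraries and 0.36 without Ad-Dyrk1b replicate 3. With all libraries the middle gene was Ank1 (1.03 ± 0.62, edgeR adjusted p = 0.305). It had only 15, 17 and 56 counts in the Ad-Dyrk1b libraries, against 6, 20 and 17 counts in the Ad-EGFP libraries. The 3 most abundant members did not share the pattern. Epb41, the protein 4.1 of the membrane skeleton, measured 61.6, 48.2 and 51.3 FPKM in the Ad-Dyrk1b libraries, against 45.6, 45.9 and 44.5 FPKM in the Ad-EGFP libraries, with replicate 1 the highest (log2 fold change 0.33 ± 0.10, edgeR adjusted p = 0.0505).

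Aqp1, a water channel of red cells and endothelium, measured 32.0, 22.2 and 28.0 FPKM in Ad-Dyrk1b replicates 1, 2 and 3, against 15.2, 24.8 and 24.7 FPKM in Ad-EGFP replicates 1, 2 and 3 (log2 fold change 0.43 ± 0.18, edgeR adjusted p = 0.146). Gypc, glycophorin C, measured 16.7, 11.2 and 14.0 FPKM in the Ad-Dyrk1b libraries, against 21.1, 16.8 and 15.8 FPKM in the Ad-EGFP libraries (-0.28 ± 0.15, edgeR adjusted p = 0.246).

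Among the 13 tested late erythroid and reticulocyte genes 1 was called, Car1, beside 7.36% of all tested genes called higher. Car1 encodes carbonic anhydrase 1, an abundant red cell enzyme. It measured 2.35, 4.17 and 6.32 FPKM in Ad-Dyrk1b replicates 1, 2 and 3, against 1.82, 1.72 and 2.37 FPKM in Ad-EGFP replicates 1, 2 and 3. Its log2 fold change was 1.20 ± 0.35 (edgeR adjusted p = 0.0456). The call was lost with limma-voom, with limma-trend on FPKM, and without any library but Ad-Dyrk1b replicate 1. Without Ad-Dyrk1b replicates 2 and 3 in turn, the adjusted p was 0.105 and 0.152. Without Ad-EGFP replicates 1, 2 and 3 in turn it was 0.134, 0.132 and 0.0785, and over all 14 alternatives it ran from 0.00774 to 0.152.

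Car1 was the 1 gene called of 13 tested on the late erythroid list of 18, and 7.36% of all tested genes were called higher. At an unadjusted p under 0.05 there were 5, beside 28.5% of all tested genes. DESeq2 called 5, edgeR with a replicate block 2, and edgeR without Ad-Dyrk1b replicate 1 called 3. Over all genes DESeq2 called 1179 higher and 715 lower, and the replicate block 1109 and 774. The fit without Ad-Dyrk1b replicate 1 called 707 and 381. Ad-Dyrk1b replicate 3 was the highest library in 10 of the 13, and the median log2 fold change was 0.63, against 0.10 without that library.

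Erythroid regulators and progenitor genes were not called. Of 12 genes 9 were tested, 0 were called by edgeR, and 4 had an unadjusted p under 0.05, beside 28.5% of all tested genes. DESeq2, limma-voom and edgeR with a replicate block called 1 each. All 9 had a log2 fold change above 0, with a median of 0.60, beside -0.00498 over all tested genes. The median was 0.37 without Ad-Dyrk1b replicate 3, which was the highest library in 5 of the 9. Tfrc, the transferrin receptor, measured 43.8, 41.1 and 44.4 FPKM in the Ad-Dyrk1b libraries, against 46.6, 45.9 and 41.8 FPKM in the Ad-EGFP libraries. Zfpm1, a cofactor of Gata1, measured 7.15, 6.41 and 7.41 FPKM in the Ad-Dyrk1b libraries, against 6.46, 3.83 and 4.0 FPKM in the Ad-EGFP libraries (log2 fold change 0.63 ± 0.20, edgeR adjusted p = 0.0590). Without Ad-EGFP replicate 1 that difference was 0.94 with an adjusted p of 0.00177. Zfpm1 was also called on all 6 libraries by DESeq2, limma-voom and edgeR with a replicate block.

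Lmo2, another partner of Gata1, measured 6.26, 4.24 and 5.22 FPKM in Ad-Dyrk1b replicates 1, 2 and 3, against 3.53, 4.45 and 3.67 FPKM in Ad-EGFP replicates 1, 2 and 3. Klf1, the erythroid Krüppel-like factor, which binds CACCC sequences in globin promoters, is named after its values were seen. It measured 1.30, 0.98 and 2.78 FPKM in the Ad-Dyrk1b libraries, against 0.91, 1.12 and 0.83 FPKM in the Ad-EGFP libraries, so again only Ad-Dyrk1b replicate 3 stood apart. Its log2 fold change was 0.90 ± 0.39 (edgeR adjusted p = 0.156). Gata1 itself had too few counts to be tested and reached at most 0.24 FPKM.

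**Figure D4:**
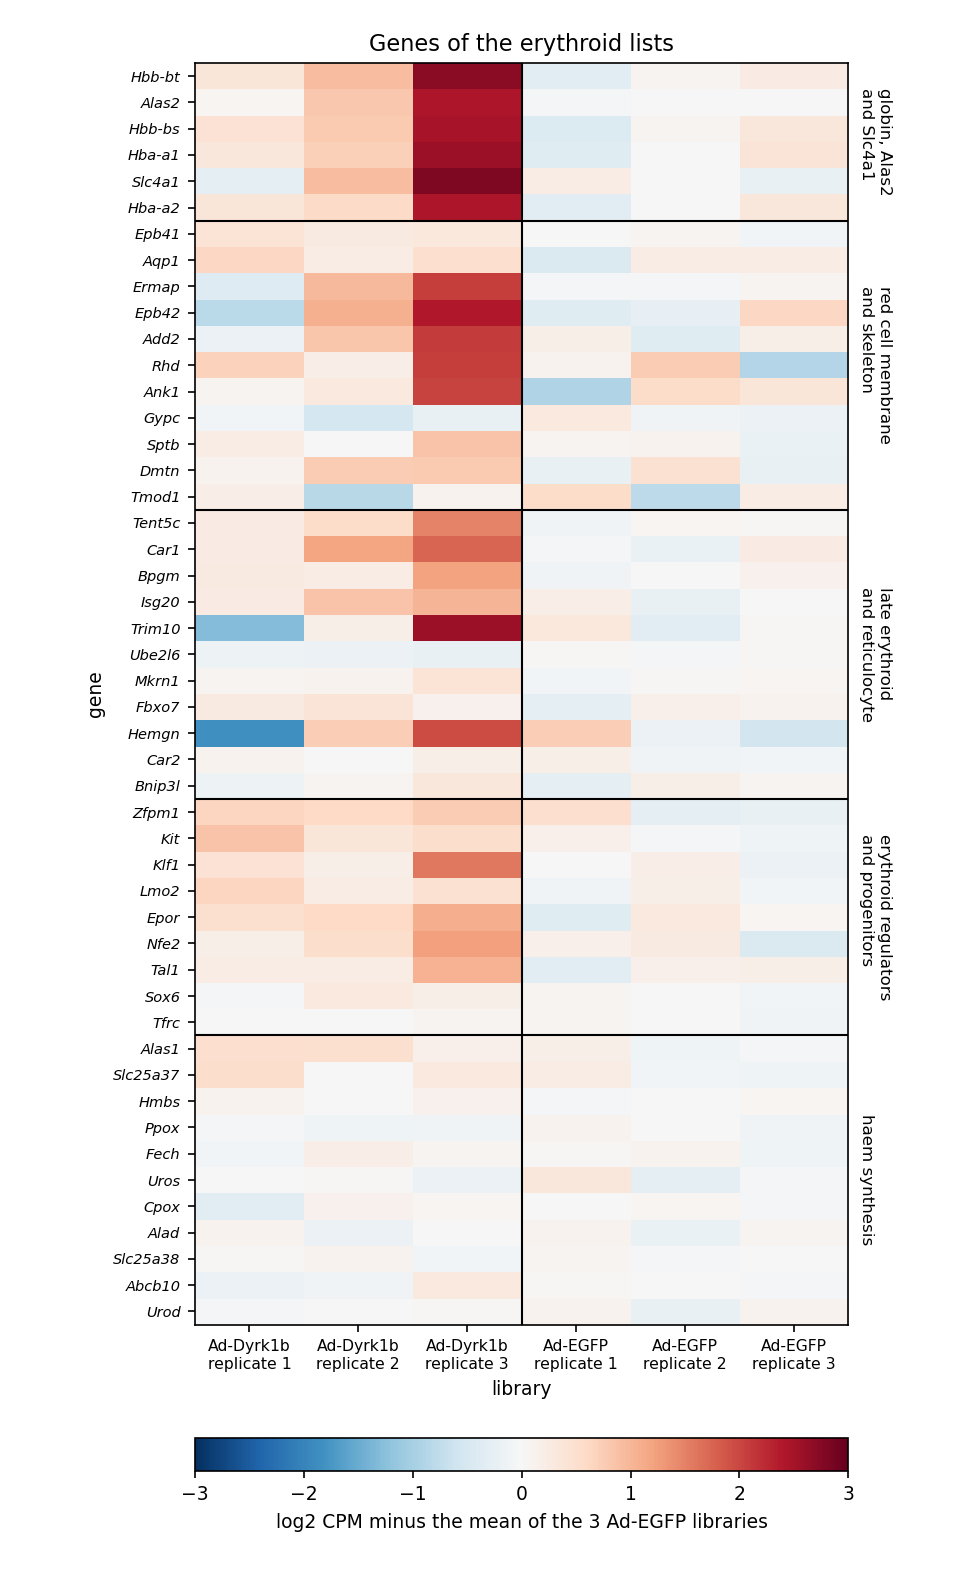
Log2 CPM of tested genes of the erythroid lists (down the page) in each library (across), minus the mean of the 3 Ad-EGFP libraries; red is higher and blue lower. Ad-Dyrk1b replicate 3 is the darkest column for the 6 transcripts at the top and for many membrane, late erythroid and regulator genes, and not for the genes of haem synthesis at the bottom.

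The rest of haem synthesis, which hepatocytes also carry out, did not share the pattern. All 11 genes were tested, 0 were called by edgeR, 1 had an unadjusted p under 0.05, and DESeq2 called 1 and limma-voom 0. The median log2 fold change was 0.02, and Ad-Dyrk1b replicate 3 was the highest library in 2 of the 11 (18.2%), close to the 18.7% of all tested genes. Alas1 measured 472, 494 and 376 FPKM in Ad-Dyrk1b replicates 1, 2 and 3, against 401, 351 and 341 FPKM in Ad-EGFP replicates 1, 2 and 3. Within the Ad-Dyrk1b group Alas1 was lowest in the library where Alas2 was highest. Its log2 fold change was 0.38 ± 0.13 (edgeR adjusted p = 0.0747). Without Ad-Dyrk1b replicate 3 it was 0.49 with an adjusted p of 0.0327, and DESeq2 called it on all 6 libraries.

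Fech, which inserts iron into the precursor of haem, measured 55.5, 61.2 and 56.6 FPKM in the Ad-Dyrk1b libraries, against 57.5, 63.8 and 53.6 FPKM in the Ad-EGFP libraries. Alad, the enzyme of the second step, measured 100.8, 76.4 and 88.7 FPKM in the Ad-Dyrk1b libraries, against 100.2, 83.5 and 101.2 FPKM in the Ad-EGFP libraries. For both genes the groups overlapped.

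Genes that clear free haem and haemoglobin were not called either. All 8 were tested, 0 were called by edgeR, 1 had an unadjusted p under 0.05, and DESeq2 called 1 and limma-voom 0. Hp, haptoglobin, the plasma carrier of free haemoglobin, measured 4049, 3548 and 4468 FPKM in the Ad-Dyrk1b libraries, against 4178, 3802 and 4971 FPKM in the Ad-EGFP libraries. Hpx, hemopexin, the plasma carrier of free haem, measured 3204, 2995 and 3445 FPKM in the Ad-Dyrk1b libraries, against 3475, 3027 and 4063 FPKM in the Ad-EGFP libraries. Blvrb, biliverdin reductase B, measured 276, 212 and 197 FPKM in the Ad-Dyrk1b libraries, against 178, 196 and 195 FPKM in the Ad-EGFP libraries (log2 fold change 0.34 ± 0.12, edgeR adjusted p = 0.0790). Without Ad-Dyrk1b replicate 3 that difference was 0.44 with an adjusted p of 0.0377.

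Markers of other blood cells moved with the globins in part, and their part in the result was not tested. Of 11 neutrophil genes 8 were tested and 0 called by edgeR (0 also by DESeq2 and at an unadjusted p under 0.05), and all 8 were highest in Ad-Dyrk1b replicate 3 by CPM (by FPKM, Ltf, a granule protein, was highest in Ad-EGFP replicate 1). Their summed level was 43.9, 21.9 and 80.9 CPM in the Ad-Dyrk1b libraries, against 60.03, 15.05 and 29.4 CPM in the Ad-EGFP libraries, in order of replicate. Ad-EGFP replicate 1, the lowest library for globins, was thus the second highest for neutrophil genes. S100a9, a neutrophil calcium-binding protein, measured 25.3, 13.2 and 49.9 FPKM in the Ad-Dyrk1b libraries, against 43.7, 8.14 and 19.6 FPKM in the Ad-EGFP libraries.

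The platelet list had 4 of 10 genes tested, 0 called by edgeR, 1 at an unadjusted p under 0.05, and 1 called by DESeq2. Ad-Dyrk1b replicate 3 was the highest library in 3 of the 4, beside 18.7% of all tested genes. The platelet sum was 53.1, 38.8 and 50.9 CPM in the Ad-Dyrk1b libraries, against 26.5, 37.8 and 38.8 CPM in the Ad-EGFP libraries. The most abundant gene of the list was Clec1b, which liver endothelium also expresses. Pf4, platelet factor 4, measured 2.23, 2.21 and 3.90 FPKM in the Ad-Dyrk1b libraries, against 3.03, 2.92 and 4.02 FPKM in the Ad-EGFP libraries. By CPM, Pf4 was highest in Ad-Dyrk1b replicate 3. Of 8 B cell genes 6 were tested and 0 called by edgeR, with 1 at an unadjusted p under 0.05 and 0 by DESeq2. Ad-Dyrk1b replicate 3 was the highest library in 4 of the 6. The B cell sum was 14.0, 7.97 and 16.2 CPM in the Ad-Dyrk1b libraries, against 8.65, 8.48 and 11.6 CPM in the Ad-EGFP libraries.

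Of 8 T cell genes 7 were tested and 1 was called, beside 7.36% of all tested genes called higher. Trbc2, a T cell receptor beta constant gene, rose by 0.92 ± 0.24 on the log2 scale (edgeR adjusted p = 0.0247), with 11.3, 6.69 and 9.0 FPKM in the Ad-Dyrk1b libraries, against 4.49, 6.11 and 4.4 FPKM in the Ad-EGFP libraries. Leaving out a library ended this call for replicate 1 of Ad-Dyrk1b (adjusted p = 0.103), replicate 3 of Ad-Dyrk1b (0.0531), replicate 1 of Ad-EGFP (0.0709) and replicate 3 of Ad-EGFP (0.0820). The T cell sum was 31.9, 23.0 and 31.1 CPM in the Ad-Dyrk1b libraries, against 15.2, 22.0 and 20.2 CPM in the Ad-EGFP libraries. It was nearly equal in Ad-Dyrk1b replicates 1 and 3, where the globins differed widely. Ad-Dyrk1b replicate 3 was the highest library in 3 of the 7 tested genes, beside 18.7% of all tested genes.

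Among the resident cells of the liver, endothelial genes were highest in Ad-Dyrk1b replicate 3 in 4 of 8, with 0 called by edgeR, 2 at an unadjusted p under 0.05, and 1 each by DESeq2 and limma-voom. They summed to 265, 196 and 278 CPM in the Ad-Dyrk1b libraries, against 131, 196 and 201.5 CPM in the Ad-EGFP libraries. Of 7 tested genes of Kupffer cells, the macrophages that take up old red cells, none was highest in that library. C6, a complement component, was the 1 gene called on that list and fell by 0.85 ± 0.14 on the log2 scale (edgeR adjusted p = 0.00265), beside 4.81% of all tested genes called lower. Of the 7, 5 had a log2 fold change above 0, and the median was 0.08, beside -0.00498 over all tested genes. Marco, named after its values were seen, had -1.07 ± 1.09 (edgeR adjusted p = 0.589). It measured 103 FPKM in Ad-EGFP replicate 3, against 8.8 to 23.3 FPKM in the other libraries. Clec4f, a lectin of Kupffer cells named after its values were seen, measured 75.8, 54.1 and 41.9 FPKM in the Ad-Dyrk1b libraries, against 35.7, 43.2 and 27.4 FPKM in the Ad-EGFP libraries (log2 fold change 0.77 ± 0.22, edgeR adjusted p = 0.0605). Without Ad-Dyrk1b replicate 3 its difference was 0.94 with an adjusted p of 0.0100. DESeq2, limma-voom and the fit with a replicate block each called 2 genes of the list, C6 and Clec4f, and without Ad-EGFP replicate 3 the 2 were C6 and Cd5l. Hepatocyte genes, 8 tested and 0 called by edgeR with 3 at an unadjusted p under 0.05 and 1 each by DESeq2 and with a replicate block, had a median log2 fold change of -0.09. Albumin, Alb, measured 25293, 28556 and 32581 FPKM in the Ad-Dyrk1b libraries, against 33759, 32599 and 32286 FPKM in the Ad-EGFP libraries.

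Genes outside the 6 were ranked by Pearson's r of their log2 CPM with the mean of the 4 globins over the 6 libraries. Of the 13201 tested genes, only those with a mean of 1 FPKM or more and no clone name (such as Gm with digits or Rik) were ranked. Scarcer genes could thus not appear. The 8 highest were AU022252, Gpi1, Polr2d, Vopp1, Mkrn1, Bpgm, Tent5c and Bsg, with r from 0.994 for AU022252 to 0.986 for Bsg. They were picked from many genes, all libraries share their scaling, and Ad-Dyrk1b replicate 3 weighs on each r, so they are a description. The ranks gave Spearman's rho of 0.943 or 1. Without Ad-Dyrk1b replicate 3 (n = 5) r was 0.902 for Bpgm, the lowest of the 8, and 0.987 for AU022252, the highest. Without that library and Ad-EGFP replicate 1, the 2 farthest from the median, r was 0.771 for Bpgm and 0.967 for AU022252 (n = 4).

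Of these, 3 stand on the late erythroid list: Mkrn1, Bpgm and Tent5c. Bpgm, the enzyme that makes the 2,3-bisphosphoglycerate of red cells, measured 10.96, 9.46 and 18.6 FPKM in Ad-Dyrk1b replicates 1, 2 and 3, against 7.28, 9.0 and 8.84 FPKM in Ad-EGFP replicates 1, 2 and 3. Tent5c, a poly(A) polymerase, measured 2.12, 2.42 and 4.77 FPKM in the Ad-Dyrk1b libraries, against 1.63, 1.92 and 1.87 FPKM in the Ad-EGFP libraries. Gpi1, a glycolytic enzyme abundant in liver, had the same ranks as the globins by log2 CPM but not by FPKM, over a smaller span, at 308, 261 and 366 FPKM in the Ad-Dyrk1b libraries, against 258, 246 and 275 FPKM in the Ad-EGFP libraries. By the same measure r was 0.971 for Alas2 and 0.914 for Slc4a1, and without Ad-Dyrk1b replicate 3 it was 0.758 and 0.362.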

How the data were processed

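The deposited table held whole-number read counts per gene, with no normalization, per the file headers, and FPKM values made by the authors. It also gave the authors' log2 ratio of mean FPKM, and the authors' p-value with its adjusted value. For the 4 globins FPKM matched counts divided by transcript length (GENCODE M21) and by the table's total, while Ltf had more counts but a lower FPKM in Ad-Dyrk1b replicate 3 than in Ad-EGFP replicate 1. Per the submitters' processing notes the build was mm10 and DESeq2 was used. The aligner, the counting tool and the strand setting are not stated in the sources used here. No column of per-sample values was left unused.

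Counts were compared with edgeR 4.0.16 in R 4.3.3 (TMM, filterByExpr with minimum count 10 and total 15, robust quasi-likelihood test, Benjamini-Hochberg over 13201 genes, called at adjusted p under 0.05). The fit was tested on simulated counts. Alternatives were DESeq2 1.42.0, limma 3.58.1 (voom, and trend on log2 of FPKM plus 1 or 0.1), RLE scaling, globins left out of library sizes, no filter, a replicate block and each library left out. Sums and ratios used exact permutation over libraries (Python, scipy). Named genes were Dyrk1b, the 6 transcripts, the called genes of each list or its 3 most abundant, and the 8 most like the globins. Apex2, Klf1, Gata1, Ltf, Clec4f, Cd5l, Marco, Ermap, Epb42, Add2, Ank1, Sptb, Dmtn and Rhd lie outside that rule (their values had been seen). The 6 genes and all lists were chosen with earlier results of these data known. Some list genes are counted in the list totals but not reported here by name. Library totals of 17326516 to 20024888 counts make 3 counts equal 0.150 to 0.173 CPM.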

Additional observations from a re-analysis of the deposited data

How the results depend on the processing

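None of the 6 transcripts was called under any of the 14 alternatives, and none changed sign, with log2 fold changes from 0.44 to 2.16 and adjusted p from 0.0584 to 0.504. Genes called higher over the whole table numbered 972 (635 lower), against 556 (702 lower) and 553 (698 lower) with limma-trend on log2 of FPKM plus 1 and plus 0.1, and 612 to 800 when each library was left out, where 294 to 461 were lower. Genes called on the fixed lists numbered 3, against 15 with DESeq2, 5 with limma-voom and 2 to 7 when each library was left out. The difference in summed globins was 1.21, 1.13 with raw library totals, 1.12 on FPKM, and 0.56 to 1.62 when each library was left out. The log2 difference of globins over Alas2 ran from -0.058 (without Ad-EGFP replicate 1) to 0.27, and of globins over Slc4a1 from -0.27 (without Ad-Dyrk1b replicate 1; -0.25 without Ad-EGFP replicate 1) to 0.33. The cause of these changes was not tested. Replicate numbers are shared between groups, and deviations of same-numbered libraries correlated at 0.02, 0.17 and 0.11, so the numbers were not taken to pair the libraries; not every library correlated best with its own number. With a replicate block 1109 genes were higher and 774 lower, 8 list genes were called, 0 of the 6 transcripts were called, and the exact p of the globin sum was 0.25, the smallest possible. Slc4a1, with 57 to 458 counts per library, is the least precise of the 6.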
